A study of Mus musculus with 12 samples.

Results

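The genes described here are 10 enzymes of muscle glycolysis and glycogen metabolism: *Pfkfb3*, *Pfkfb1*, *Pfkm*, *Aldoa*, *Eno3*, *Pgam2*, *Pygm*, *Gys1*, *Ldha* and *Hk2*. They were chosen by gene name with earlier results of these data known, so the shares of all genes given beside them are no independent test. All 10 were found among the 37748 genes of the count table and were among the 16679 genes that passed the filter on low counts. RNA-seq of gastrocnemius muscle, a calf muscle made mostly of fast fibers, was carried out on 12 mice at 13 weeks of age, with 1 library per mouse and 3 mice per group. The study made mice in which DUX4, the transcription factor misexpressed in facioscapulohumeral muscular dystrophy (FSHD), can be switched on at different levels in skeletal muscle, and asked how the muscle responds.

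Control mice (ACTA1-MCM/+) carried only a tamoxifen-inducible Cre (MerCreMer) driven by the skeletal actin promoter. FLExD mice (FLExDUX4/+) carried only the conditional DUX4 transgene, which needs Cre to be turned into its expressing orientation. Neither of these groups received tamoxifen (TMX). Both transgenes (FLExDUX4/+;MCM/+) were present in the mice of the 2 models, which received TMX as 1 injection of 5 mg/kg for moderate disease and as 2 injections of 10 mg/kg on consecutive days for severe disease, and muscle was taken on day 9. The control mice had no TMX, so TMX and DUX4 induction cannot be told apart in these comparisons. The sample descriptions call the FLExD mice mild in pathology, but their strain entry lists only the DUX4 transgene, and they are treated here by that strain.

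In skeletal muscle, glycogen is the store and glycolysis the fast route of energy supply. Glycogen phosphorylase (*Pygm*) releases glucose units from glycogen and glycogen synthase (*Gys1*) adds them, whereas hexokinase (*Hk2*) traps glucose that enters from the blood. Phosphofructokinase (*Pfkm*) is the main control point of the pathway, and the bifunctional enzymes encoded by the *Pfkfb* genes set its activity through fructose 2,6-bisphosphate. Aldolase (*Aldoa*), phosphoglycerate mutase (*Pgam2*) and enolase (*Eno3*) act further down, and lactate dehydrogenase (*Ldha*) converts pyruvate to lactate. Several of these genes encode the form of their enzyme that is typical of adult muscle, while other tissues use a sister gene. Inherited loss of *PYGM* or *PFKM* causes the human glycogen storage diseases of muscle named after McArdle and Tarui.

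The windows before the transcription starts of these genes are shown because the genes fell together, with *Pygm* having the largest and *Ldha* the smallest fold change in severe mice and *Pfkfb3* following another pattern. The sequences are the 250 bases before RefSeq starts in build GRCm38.p6, written 5′ to 3′ on the strand of the gene, and each lies at chr19:6384158-6384407 (plus strand) for *Pygm*, chr7:46845554-46845803 (plus strand) for the first of 2 *Ldha* starts, chr11:5803797-5804046 (minus strand) for *Pgam2*, and chr2:11553930-11554179 and chr2:11502091-11502340 (both minus strand) for the 2 *Pfkfb3* starts. Capitals mark matches, on either strand, to the E-box CANNTG bound by myogenic factors, the hypoxia response element core ACGTG, the TATA box TATAAA and the MEF2 motif. A match to CACGTG is counted as an E-box and, once on each strand, as a hypoxia response element core.
Pygm: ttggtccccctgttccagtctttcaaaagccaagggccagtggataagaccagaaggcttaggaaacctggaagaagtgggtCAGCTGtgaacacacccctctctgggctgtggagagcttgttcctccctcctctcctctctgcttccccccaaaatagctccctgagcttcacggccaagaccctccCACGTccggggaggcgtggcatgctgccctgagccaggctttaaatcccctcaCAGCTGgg
Ldha start 1: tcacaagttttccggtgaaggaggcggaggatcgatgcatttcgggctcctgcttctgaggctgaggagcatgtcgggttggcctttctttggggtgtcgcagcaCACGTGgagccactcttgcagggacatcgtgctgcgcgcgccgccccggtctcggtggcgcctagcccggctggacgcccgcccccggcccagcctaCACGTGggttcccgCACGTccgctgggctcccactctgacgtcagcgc
Pgam2: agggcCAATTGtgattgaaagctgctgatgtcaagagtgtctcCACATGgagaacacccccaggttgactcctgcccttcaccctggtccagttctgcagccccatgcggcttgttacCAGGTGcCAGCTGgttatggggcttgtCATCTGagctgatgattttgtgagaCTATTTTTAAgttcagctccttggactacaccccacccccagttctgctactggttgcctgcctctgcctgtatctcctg
Pfkfb3 start 1: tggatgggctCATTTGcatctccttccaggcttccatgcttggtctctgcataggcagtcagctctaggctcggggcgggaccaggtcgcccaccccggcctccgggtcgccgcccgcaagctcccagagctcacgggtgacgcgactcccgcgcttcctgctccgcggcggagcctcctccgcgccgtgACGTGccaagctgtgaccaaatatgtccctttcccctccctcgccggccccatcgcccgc
Pfkfb3 start 2: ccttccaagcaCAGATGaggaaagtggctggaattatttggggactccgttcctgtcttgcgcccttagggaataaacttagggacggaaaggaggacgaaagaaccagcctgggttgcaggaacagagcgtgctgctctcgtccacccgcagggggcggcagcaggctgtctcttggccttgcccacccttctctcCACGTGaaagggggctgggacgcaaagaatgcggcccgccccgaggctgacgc

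The 10 genes had 20 such windows in all. The windows of starts 2 and 3 overlap for *Aldoa* and for *Pfkm*, and the *Aldoa* matches lie in both and are counted in each. The percentages of all windows are per window and not per gene. An E-box was present in 18 of the 20 windows and in 9 of the 10 genes, *Hk2* being the exception, beside 66.2% of 32536 windows of all genes. The hypoxia response element core was present in 9 windows of 6 genes (*Pfkfb3*, *Pfkm*, *Aldoa*, *Pygm*, *Ldha* and *Hk2*), beside 16.7% of all windows, and the first *Ldha* window held 5 matches. The MEF2 motif was found before *Pgam2* and 1 *Pfkfb1* start, beside 2.89% of all windows. A TATA box was found in 1 window, also of *Pfkfb1*, beside 12.3%. The DUX4 motif was in 0 of the 20 windows, beside 0.101% of all windows, which says only that those letters are not in these stretches. These matches are descriptions and were not tested for binding.

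The libraries held between 23796902 and 29136403 counts. Their composition differed strongly between groups. The 20 most abundant genes took 56.8% to 58.5% of the counts in control and FLExD mice, 47.3% to 49.3% in the moderate model and 30.4% to 33.2% in the severe model, and the TMM scaling factors were correspondingly 0.706 to 0.760, 1.06 to 1.13 and 1.69 to 1.87. Levels below are CPM, a gene's counts relative to a fixed total, on TMM-scaled library sizes unless TPM, which is per transcript length, is named. Without TMM, by library size alone, the median log2 fold change of all genes tested was 0.65 in moderate and 1.39 in severe mice, against 0.04 and 0.08 with TMM, so the results of the 10 genes are given under both scalings. In bulk muscle, a loss of fibers and less RNA of a gene per fiber cannot be told apart. *Xist* was at 128 to 379 CPM and *Ddx3y* and *Eif2s3y* were at most 0.0482 CPM in all 12 libraries, so the groups did not differ in sex. *Esr1*, part of which is in MerCreMer, was at 422 to 818 CPM in control mice and 27.5 to 37.9 CPM in FLExD mice, which lack it. In the models, whose strain carries MerCreMer, it was at 95.9 to 123.5 CPM in moderate and 35.2 to 37.4 CPM in severe mice, so that severe mice overlapped with FLExD mice and *Esr1* does not check that label. *Wfdc3*, a known target of DUX4 in mouse muscle, was at most 0.386 CPM in control and FLExD mice and 62.5 to 116 CPM in the models.

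Together the 10 genes took 2.31% to 2.81% of all counts in control mice and 2.28% to 2.82% in FLExD mice. Their share was 1.57% to 1.77% in the moderate model and 0.487% to 0.810% in the severe model. The 3 ranges of control, moderate and severe mice did not overlap. On the per-length scale, *Aldoa* was the most abundant in control mice with 11520 ± 1350 TPM (mean ± SD, n = 3), followed by *Eno3* (3994 ± 504 TPM), *Pygm* (2524 ± 347 TPM), *Pgam2* (1546 ± 198 TPM), *Ldha* (1533 ± 198 TPM) and *Pfkm* (1129 ± 132 TPM). *Hk2* (53.4 ± 9.65 TPM), *Gys1* (52.9 ± 4.16 TPM), *Pfkfb3* (42.4 ± 23.3 TPM) and *Pfkfb1* (14.9 ± 3.57 TPM) were far lower. Among neighbors in this order, *Pgam2* and *Ldha* overlapped between mice, as did each neighboring pair from *Hk2* down to *Pfkfb1*. In the severe model *Aldoa* (2368 ± 712 TPM) and *Eno3* (1099 ± 276 TPM) were still the most abundant, whereas *Ldha* (822 ± 230 TPM) ranked above both *Pgam2* (389.5 ± 112 TPM) and *Pygm* (362 ± 119 TPM), and *Pygm* overlapped with *Pgam2* and *Pfkm*.

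All 10 genes fell in both disease models, and 0 of 10 were called in FLExD mice (edgeR quasi-likelihood test with TMM, called at a Benjamini-Hochberg adjusted p under 0.05 and a log2 fold change of at least 0.5). For FLExD versus control the background was 0% of genes tested called higher and 0.006% called lower, and the 10 log2 fold changes lay between -0.23 (*Pfkfb3*) and 0.22 (*Hk2*), all at an adjusted p of 1. None of the 10 had an unadjusted p under 0.05 there, and DESeq2 and limma also called 0. For moderate versus control, 10 of 10 were called lower, where 17.0% of all genes tested were called lower, and their median log2 fold change was -1.07. By library size alone 5 of 10 were called lower (*Pfkfb3*, *Aldoa*, *Pgam2*, *Pygm* and *Hk2*), where 4.51% of all genes were, and the median was -0.47. The count was also 5 by library size without mitochondrial genes (4.90% of all genes), by limma on log2(TPM + 1) (4.42%) and by limma on log2(TPM + 0.1) (5.56%), and it was 6 at a log2 threshold of 1 (7.03%). For severe versus control, 10 of 10 were called lower, where 27.9% of all genes were, with a median of -3.10, and by library size alone 10 of 10 (6.42% of all genes) with a median of -1.81. For severe versus moderate, 9 of 10 were called lower, where 18.8% of all genes were, with a median of -1.97 and with *Pfkfb3* the exception, and by library size alone the count was also 9, where 4.94% of all genes were. On TMM-scaled CPM, all mice of the first group were below all mice of the second for 10 of 10 genes in each of these 3 comparisons. Of all genes, 28.5%, 34.9% and 30.8% were separated in this way. For *Pfkfb3* in severe versus moderate mice this rested on 15.61 against 15.62 CPM. By library size alone *Pfkfb3* overlapped there, with severe mouse 1047 at 29.14 CPM and moderate mouse 1331 at 16.56 CPM. *Ldha*, *Gys1* and *Pfkfb1* overlapped between moderate and control mice by library size alone. The 3 comparisons share mice and are not independent of each other.

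**Figure D1:**
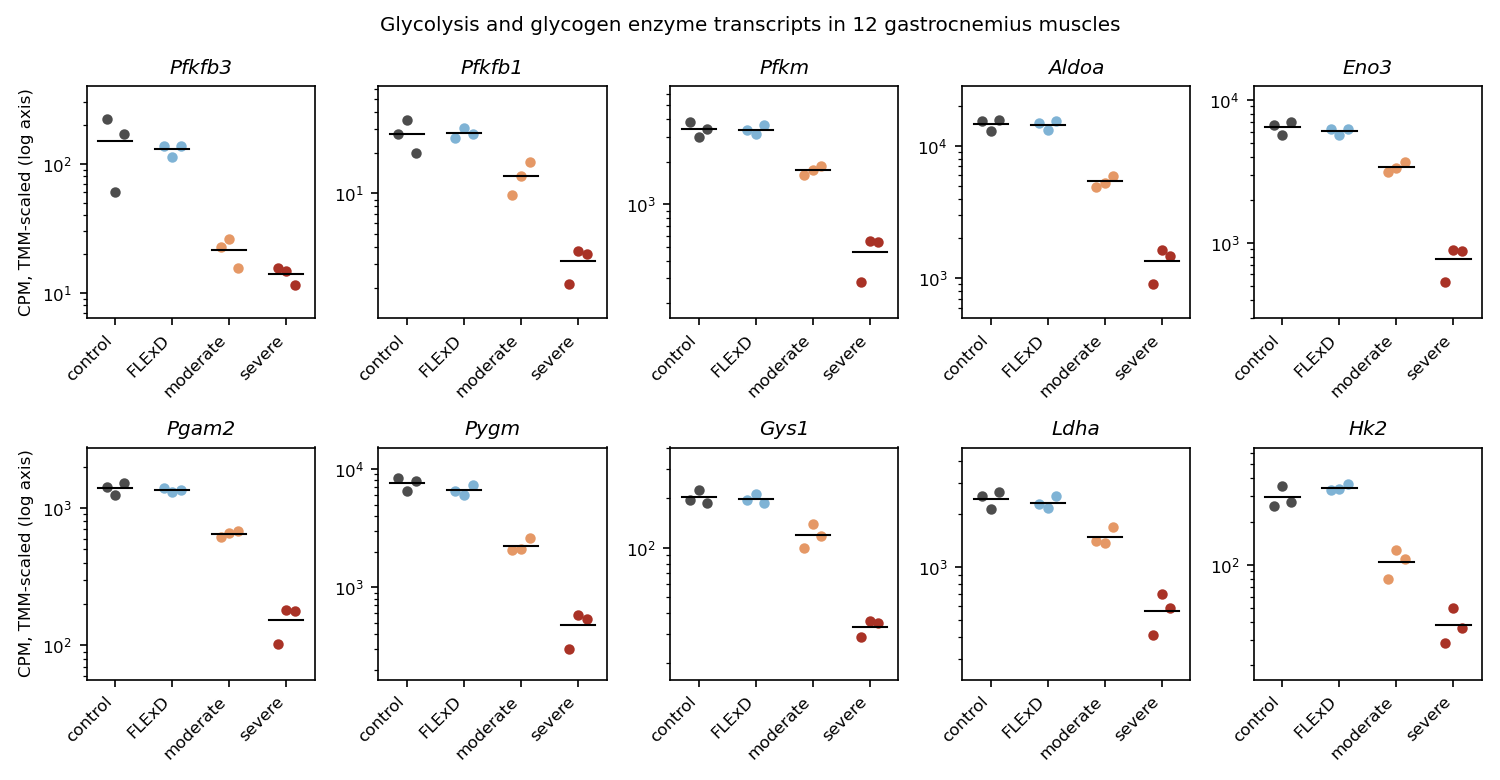
Level of each of the 10 genes in every mouse, in CPM on TMM-scaled library sizes on a log axis whose range differs between panels, with 1 point per mouse and a black line at the group mean. For all 10 genes the moderate and severe mice lie below the control mice, and the FLExD points fall within or next to the control points.

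*Pfkfb3* encodes an isoform of the PFKFB family with a high ratio of kinase to phosphatase activity, which favors glycolysis. It was at 222, 60.4 and 170.2 CPM in the control mice, 136, 113 and 138 CPM in the FLExD mice, 22.5, 26.1 and 15.6 CPM in the moderate model and 15.6, 14.7 and 11.5 CPM in the severe model. Control mouse 1246 was well under the other control mice, and the moderate and severe mice were all below it. The level in the moderate model was 7.04-fold lower than in control mice (log2 fold change -2.82, SE 0.42, adjusted p = 0.000316), the largest fall of the 10 genes there, and only 0.330% of all genes tested had a lower log2 fold change. In the severe model it was 10.8-fold lower (log2 fold change -3.44, SE 0.43, adjusted p = 5e-05). The step from moderate to severe was small for *Pfkfb3* (log2 fold change -0.62, SE 0.40, adjusted p = 0.232), and the sign was positive by library size alone (0.08) and by limma on log2(TPM + 1) (0.18). Without control mouse 1246 this step was called (log2 fold change -0.61, adjusted p = 0.0167).

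*Pfkfb1* encodes the family member of liver and muscle. It was at 27.7, 34.8 and 20.04 CPM in control mice, 25.7, 30.7 and 27.5 CPM in FLExD mice, 9.77, 13.5 and 17.1 CPM in the moderate model and 2.14, 3.75 and 3.53 CPM in the severe model. On TMM-scaled CPM the moderate mice lay between the control and severe mice with no overlap. By library size alone moderate mouse 1331 (18.12 CPM) was above control mouse 1349 (14.52 CPM), as it was in TPM (12.82 against 11.32). The log2 fold change was -1.03 (SE 0.24, adjusted p = 0.00336) in the moderate and -3.13 (SE 0.27, adjusted p = 4.87e-07) in the severe model, and -2.10 (SE 0.26, adjusted p = 5.39e-05) between them. By library size alone the moderate change was -0.43 (adjusted p = 0.0915). The step between the models was thus called for *Pfkfb1* and not for *Pfkfb3*, and whether the steps differ was not tested. The ratio of *Pfkfb3* to *Pfkfb1* TPM, which was looked at after these values were seen, was 4.09, 0.889 and 4.37 in control mice, 1.04, 0.969 and 0.485 in the moderate model and 2.53, 1.77 and 1.57 in the severe model, so the control mice spanned the values of the severe model.

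Within the PFKFB family, *Pfkfb3* made up 65.6%, 30.9% and 62.7% of the summed TPM in control mice, 28.3%, 29.5% and 17.2% in the moderate model and 38.4%, 35.2% and 34.0% in the severe model. All moderate mice were below all control mice and below all severe mice, whereas control and severe mice overlapped because of control mouse 1246. The sister genes *Pfkfb2* and *Pfkfb4* were also measured. *Pfkfb4* was called lower in both models (log2 fold change -0.87 and -2.26), and *Pfkfb2* only passed the test in the severe model (log2 fold change -0.72, and 0.58 by library size alone).

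The genes whose log2 CPM over the 12 mice was most like that of *Pfkfb3*, among 12316 genes with a mean of at least 50 counts, were *Pip5k1a* (Pearson r = 0.995), *Unc119b* (0.986), *Zmynd19* (0.983), *E130308A19Rik* (0.982) and *Dcaf5* (0.982). For *Pfkfb1* they were *Hibch* (0.996), *Slco5a1* (0.995), *Ogdh* (0.994), *Ndufv2* (0.993) and *Polr2m* (0.992). An r over 0.95 was reached by 234 genes for *Pfkfb3* and by 1257 to 1798 genes for each of the other 9. These points fall into groups of mice that differ in scaling, so r describes a shared profile over 4 groups and no p is given.

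*Hk2*, the hexokinase of insulin-responsive muscle, was at 256, 352 and 276 CPM in control mice, 331, 335 and 365 CPM in FLExD mice, 79.1, 126 and 109 CPM in the moderate model and 28.5, 49.6 and 36.0 CPM in the severe model. The 3 groups of control, moderate and severe mice did not overlap. The fall was 2.81-fold in the moderate (log2 fold change -1.49, SE 0.20, adjusted p = 4.12e-05) and 7.75-fold in the severe model (log2 fold change -2.95, SE 0.22, adjusted p = 4.26e-08).

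*Pfkm* and *Aldoa* carry out the committed step and the split into triose phosphates. *Pfkm* was at 2989 to 3802 CPM in control, 1624 to 1865 CPM in moderate and 284 to 547 CPM in severe mice, with log2 fold changes of -0.96 (SE 0.21, adjusted p = 0.00154) and -2.89 (SE 0.22, adjusted p = 4.06e-08). *Aldoa* was at 12990 to 15670 CPM in control, 4894 to 5961 CPM in moderate and 904 to 1636 CPM in severe mice, with log2 fold changes of -1.44 (SE 0.21, adjusted p = 4.83e-05) and -3.45 (SE 0.23, adjusted p = 7.21e-09). The change of *Aldoa* in the moderate model was also called by library size alone (-0.84), whereas that of *Pfkm* was not (-0.35, adjusted p = 0.107).

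*Pgam2* and *Eno3*, the muscle forms of mutase and enolase, had similar fold changes. *Pgam2* was at 1244 to 1536 CPM in control, 616 to 683 CPM in moderate and 102 to 182 CPM in severe mice (log2 fold changes -1.11 and -3.19, SE 0.18 and 0.20). *Eno3* was at 5639 to 6943 CPM in control, 3128 to 3650 CPM in moderate and 536 to 884 CPM in severe mice (log2 fold changes -0.93 and -3.07, SE 0.19 and 0.20). By library size alone the moderate change of *Pgam2* was called just past the threshold (-0.501), and that of *Eno3* was not called (-0.326). In the severe model, mouse 1047 was the lowest of the 3 for 9 of the 10 genes, *Pfkfb3* being the exception. Without that mouse the number of the 10 genes called was the same in every comparison.

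*Ldha* had the smallest fold change of the 10 genes in both models. It was at 2523, 2139 and 2653 CPM in control mice, 2294, 2160 and 2525 CPM in FLExD mice, 1400, 1367 and 1688 CPM in the moderate model and 415, 701 and 584 CPM in the severe model. The groups did not overlap under TMM, and the log2 fold change was -0.72 (SE 0.18, adjusted p = 0.00375) in the moderate and -2.11 (SE 0.19, adjusted p = 1.41e-07) in the severe model. By library size alone the moderate value was -0.11 (adjusted p = 0.556) and the severe value -0.81 (adjusted p = 0.000278). The moderate change of *Ldha* was called with TMM, median-of-ratios factors and DESeq2 and not by library size alone or by limma on TPM.

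Of the glycogen enzymes, *Pygm* had the larger fold change and *Gys1* the smaller. *Pygm* was at 8442, 6491 and 7937 CPM in control mice, 6552, 6030 and 7350 CPM in FLExD mice, 2047, 2119 and 2583 CPM in the moderate model and 297, 586 and 539 CPM in the severe model. Its fall of 16.1-fold in the severe model (log2 fold change -4.01, SE 0.25, adjusted p = 4.48e-09) was the largest of the 10 genes, and in the moderate model it was 3.39-fold lower (log2 fold change -1.76, SE 0.23, adjusted p = 1.73e-05). *Gys1* was at 195, 223 and 186 CPM in control mice, 193, 209.9 and 185 CPM in FLExD mice, 99.4, 138 and 118 CPM in the moderate model and 28.7, 35.9 and 35.2 CPM in the severe model. Its log2 fold change was -0.77 (SE 0.13, adjusted p = 0.000162) in the moderate and -2.60 (SE 0.14, adjusted p = 8.57e-10) in the severe model, and by library size alone the moderate value was -0.16 (adjusted p = 0.204).

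The ratio of *Pygm* to *Gys1* TPM within a library, which does not depend on the scaling between libraries, was 54.4, 36.8 and 53.6 in control mice and 41.7, 36.5 and 50.1 in FLExD mice. It was 25.4, 19.2 and 28.4 in the moderate model and 13.3, 20.5 and 18.9 in the severe model. All moderate and severe mice were below all control mice, and the moderate and severe mice overlapped. The ratio of *Ldha* to *Pygm* TPM went the other way, from 0.568, 0.625 and 0.634 in control mice to 1.30, 1.22 and 1.23 in moderate and 2.63, 2.27 and 2.05 in severe mice. Both ratios were chosen after the fold changes were seen and are given with no test.

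**Figure D2:**
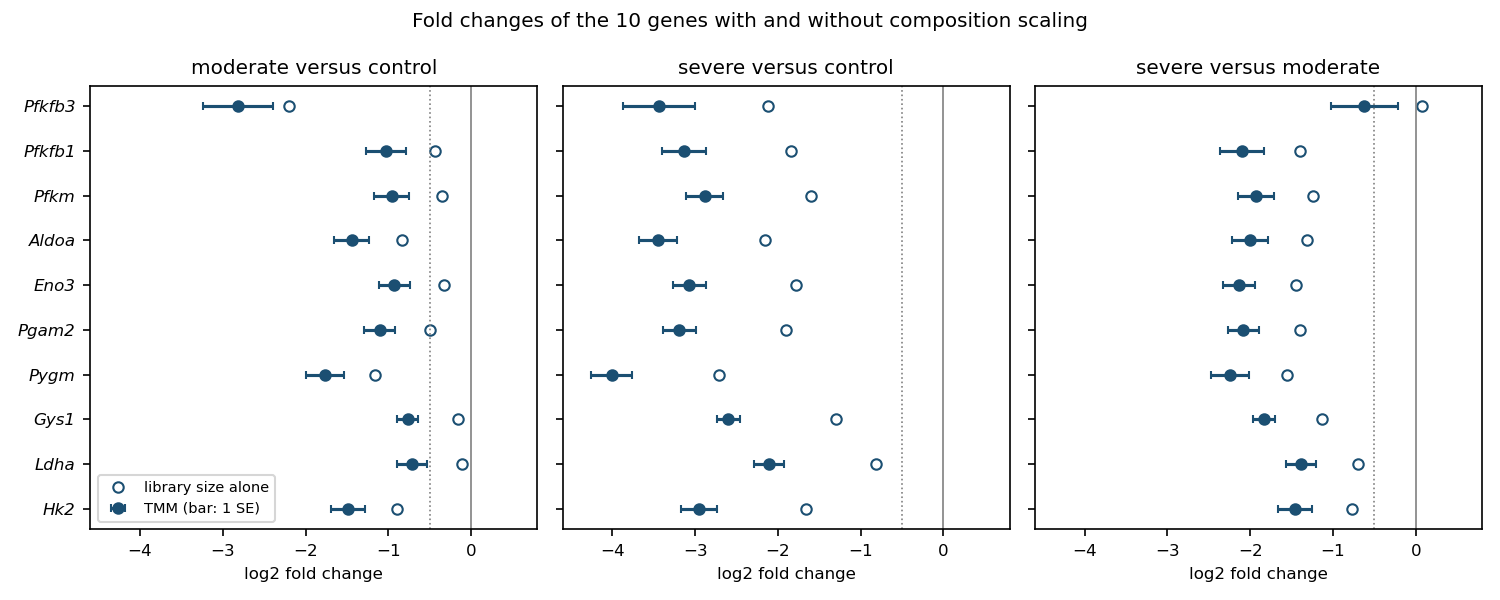
Log2 fold change of each gene in the 3 comparisons, with filled points and bars of 1 SE for TMM scaling and open points for library size alone. The solid line marks 0 and the dotted line the threshold of -0.5. In the moderate model the open points of *Ldha* (-0.11) and *Gys1* (-0.16) lie near 0, whereas in the severe model all 10 genes are below the threshold under both scalings.

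The genes were then set beside other transcripts of the fiber in the same library. The reference was the summed counts of 8 sarcomere genes (*Acta1*, *Mylpf*, *Myl1*, *Tnnc2*, *Tnni2*, *Tnnt3*, *Actn3* and *Tpm1*), which took 6.78% of counts in control, 3.71% in moderate and 1.56% in severe mice. Most genes lay higher against this falling reference, with 88.0% of all genes tested in moderate and 97.0% in severe mice above all control mice and 1.04% and 0.707% below all of them. Of the 10 genes, 5 were higher in every moderate mouse than in every control mouse, by log2 differences of 0.75 (*Ldha*), 0.69 (*Gys1*), 0.54 (*Eno3*), 0.51 (*Pfkm*) and 0.37 (*Pgam2*). Only *Pygm* was lower in every moderate mouse (-0.29), and the other 4 overlapped with the control mice. In the severe model 4 of 10 genes were above all control mice, *Ldha* by 1.30, *Gys1* by 0.83, *Pfkm* by 0.49 and *Eno3* by 0.33, and *Pygm* was below all of them by a log2 difference of -0.63. *Aldoa* stayed within 0.06 of the control mean ratio in both models (log2 differences 0.02 and -0.06), so it fell by about as much as the sarcomere genes. Each difference without overlap had an exact two-sided permutation p of 0.10, the smallest that 3 mice against 3 allow, and the lowest adjusted value over the 40 comparisons was 0.25. Between severe and moderate mice, *Pfkfb3* was higher relative to the sarcomere genes (1.36, no overlap) and so was *Ldha* (0.55), as were 94.4% of all genes, whereas *Pygm* (-0.34) and *Eno3* (-0.21) were lower, as were 0.683%. In FLExD mice *Aldoa* alone of the 10 lay above all control mice (0.13), where 5.16% of all genes did. With *Ckm* alone as the reference, *Ldha* was again the highest of the genes in the severe model (1.82), but *Pygm* was at -0.11 and *Aldoa* at 0.46. Between severe and moderate mice, *Pfkfb3* (1.93) and *Ldha* (1.11) kept their direction against *Ckm*, whereas *Pygm* (0.23) and *Eno3* (0.36) turned to higher. The lower values of *Pygm* and *Eno3* in that comparison thus depend on the reference.

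**Figure D3:**
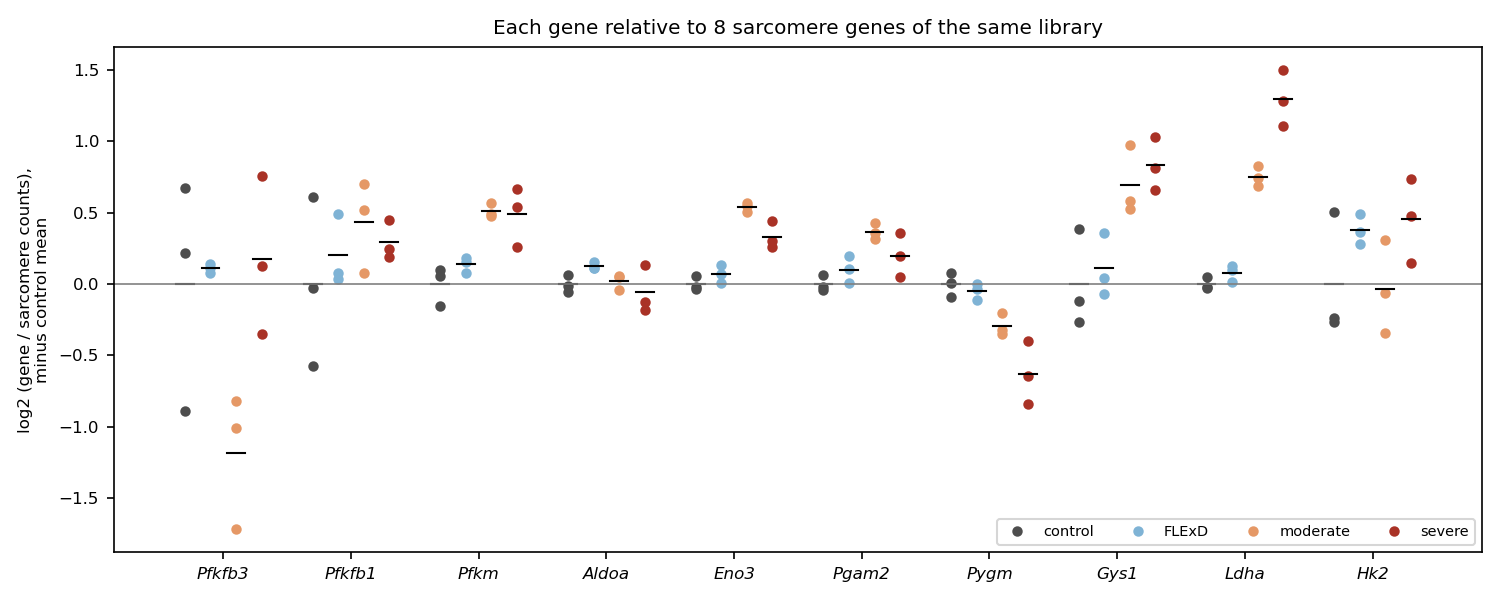
Log2 ratio of each gene's count to the summed counts of 8 sarcomere genes in the same library, with the mean of the control mice set to 0, 1 point per mouse and a black line at each group mean. *Ldha* lies above the control mice in all 6 mice of the models and *Pygm* below them, and the moderate mice are the lowest for *Pfkfb3*, with 1 of them overlapping the control mice.

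For the enzymes with sister genes, the share of the muscle isoform in the summed TPM of its family was compared, a measure that is also free of the scaling between libraries. The muscle isoform lost share in 6 families in both models with no overlap with control mice, and of these 6 hexokinase changed most. *Pygm* was also below all control mice in FLExD mice, by -0.067 percentage points. *Hk2* made up 90.2%, 92.1% and 89.3% of hexokinase TPM in control mice, 92.5%, 91.0% and 91.6% in FLExD mice, 63.5%, 73.1% and 66.0% in the moderate model and 27.2%, 40.3% and 35.3% in the severe model. *Hk1*, the housekeeping hexokinase, went from 6.62% ± 1.05 (SD, n = 3) in control to 20.8% ± 3.82 in moderate and 43.9% ± 4.88 in severe mice, and in 2 of 3 severe mice it exceeded *Hk2*. From expected counts not divided by length it exceeded *Hk2* in 0 of 3, with 39.8%, 31.9% and 34.4% against 42.4%, 56.0% and 50.9%. *Hk3*, a hexokinase of blood cells, went from 1.04% ± 0.175 to 6.57% ± 0.714 and 18.8% ± 3.57. From expected counts, *Hk3* was at 0.177%, 0.174% and 0.282% in control mice and 17.5%, 10.3% and 13.7% in severe mice. The 2 measures differ by more than length, because deposited TPM can be above 0 at 0 counts. *Pklr*, for example, was at 0 counts and 0.40 TPM in control mouse 1127. The TPM shares of scarce isoforms are limited by this.

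The enolase share of *Eno3* was 99.2% ± 0.0498 in control, 97.4% ± 0.258 in moderate and 80.1% ± 6.56 in severe mice, while *Eno1*, the enolase of most other tissues, took 0.781%, 2.56% and 19.7%. For phosphofructokinase, *Pfkm* was at 99.4% ± 0.145, 98.1% ± 0.207 and 89.9% ± 3.70, and the platelet-type *Pfkp* took 0.351%, 1.28% and 7.14%. *Pygm* went from 99.8% ± 0.0175 to 99.2% ± 0.140 and 94.7% ± 2.03 of glycogen phosphorylase, and *Pgam2* from 99.9% ± 0.0330 to 99.7% ± 0.0317 and 96.7% ± 1.83 of phosphoglycerate mutase. *Aldoa* remained at 99.94% of aldolase TPM even in the severe model. All shares without overlap had an exact two-sided permutation p of 0.10, the smallest possible with 3 against 3, and the lowest adjusted value over 36 comparisons was 0.164.

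Lactate dehydrogenase and glycogen synthase did not follow. *Ldha* made up 96.8%, 91.2% and 98.0% of the family in control mice, and 97.9%, 98.9% and 98.0% in severe mice, which overlapped. The partner *Ldhb*, typical of oxidative fibers and heart, differed among control mice, with 72.3, 178 and 45.8 CPM, and was called lower in the severe model (log2 fold change -3.65, SE 0.68, adjusted p = 0.000917). *Gys1* was at 99.8% of glycogen synthase in control and 99.9% in moderate and severe mice. Reads of 50 bases from *Ldha*, *Eno1* and *Pgam1* can match near-identical processed copies elsewhere in the genome, and the shares depend on how RSEM divided such reads.

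**Figure D4:**
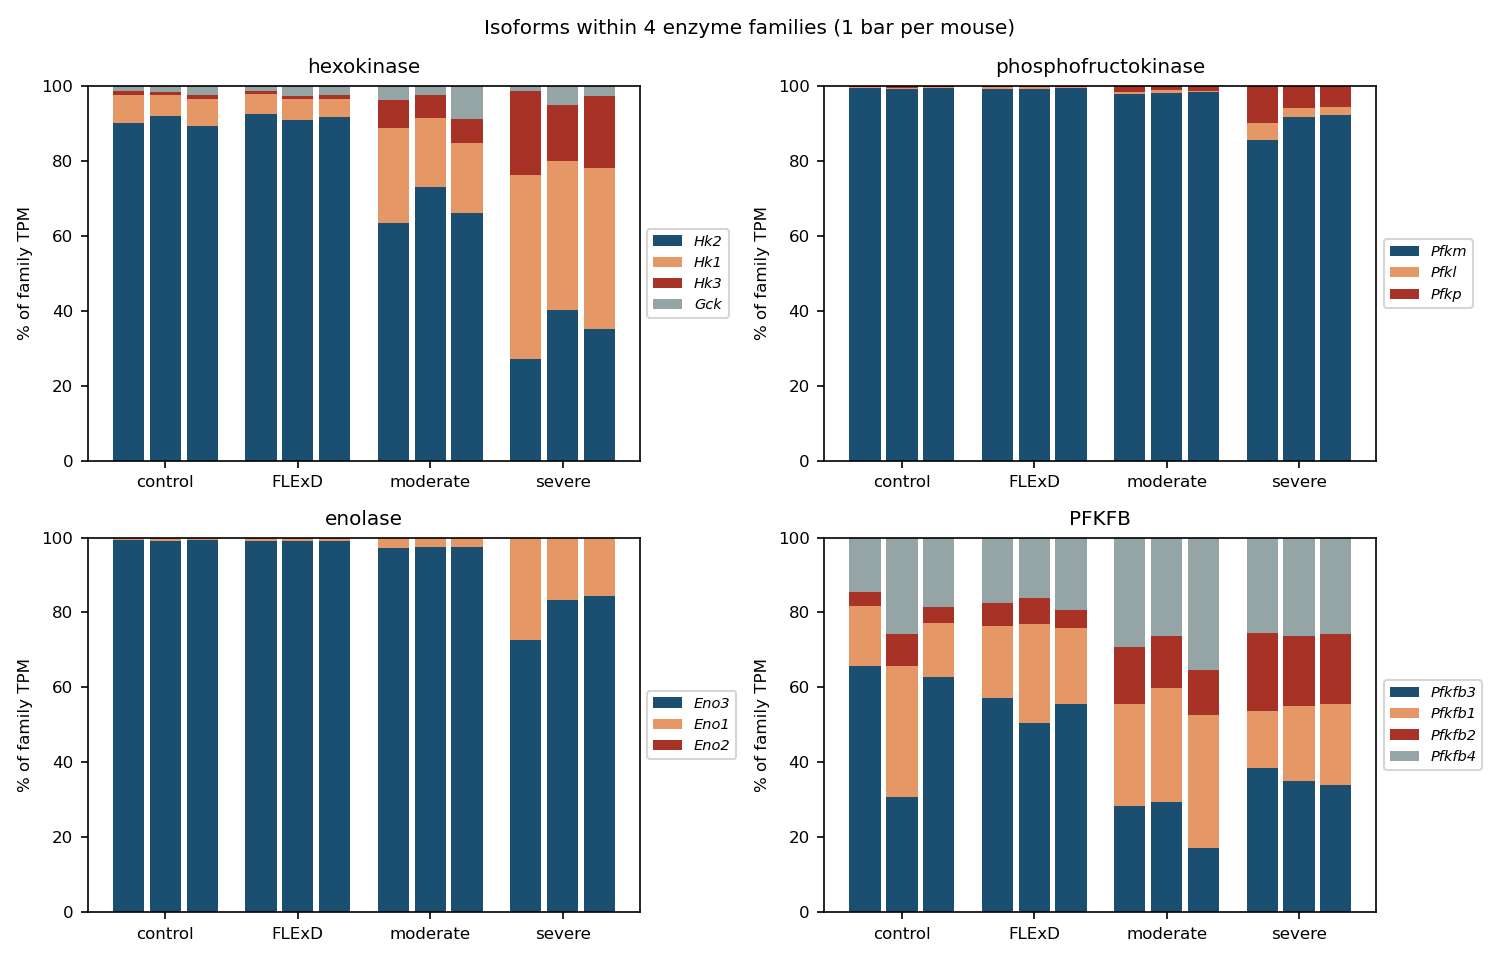
Share of each isoform in the summed TPM of its enzyme family, with 1 stacked bar per mouse and the 4 groups side by side. *Hk2* takes 89.3% to 92.5% of hexokinase in control and FLExD mice and 27.2% to 40.3% in severe mice, and *Eno1* and *Pfkp* become visible in the severe model.

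In hexokinase, phosphofructokinase, phosphoglycerate mutase and enolase, sister genes were called higher in both models beside the muscle isoform that fell, and in aldolase and glycogen phosphorylase they were called higher with TMM in the severe and not in the moderate model. Among the other glycolytic enzymes, 19 of 22 listed genes were tested. Of these, 6 rose in moderate mice (*Hk1*, *Hk3*, *Pfkp*, *Pgam1*, *Eno1* and *Eno2*), where 24.4% of all genes tested rose, and 8 fell, where 17.0% fell. In severe mice 8 rose, where 32.9% of all genes did, the same 6 with *Pfkl* and *Aldoc*, and 10 fell, where 27.9% did. Those called lower in the severe model were *Gpi1*, *Pfkfb2*, *Pfkfb4*, *Fbp2*, *Tpi1*, *Gapdh*, *Pgk1*, *Bpgm*, *Pkm* and *Ldhb*. By library size alone the counts were 8 higher and 2 lower for moderate mice (52.5% and 4.51% of all genes) and 9 higher and 8 lower for severe mice (75.4% and 6.42%).

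*Hk3* rose most of these, from 0.466 to 0.805 CPM in control mice to 4.10 to 4.65 CPM in moderate and 9.08 to 11.7 CPM in severe mice (log2 fold changes 2.80 and 3.99). *Hk1* rose from 5.70 to 6.78 CPM to 15.1 to 16.0 CPM and 24.3 to 28.2 CPM (log2 fold changes 1.29 and 2.05), and *Pfkp* had log2 fold changes of 1.34 and 2.03. *Fbp2*, the muscle fructose bisphosphatase, fell most, from 50.2 to 66.5 CPM in control to 10.1 to 11.02 CPM in moderate and 2.66 to 4.03 CPM in severe mice (log2 fold changes -2.45 and -4.00). *Bpgm*, which makes 2,3-bisphosphoglycerate, had log2 fold changes of -1.71 and -3.35. These 5 genes kept their direction by library size alone, where *Hk3* was at 3.40 and 5.29 and *Fbp2* at -1.84 and -2.71.

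Of the other glycogen genes, 23 of 24 listed were tested, with 11 falling and 2 rising in moderate mice (17.0% and 24.4% of all genes tested) and 17 falling and 4 rising in severe mice (27.9% and 32.9%). *Phkg1* and *Phka1*, the muscle catalytic and regulatory subunits of the phosphorylase kinase that activates *Pygm*, fell by log2 fold changes of -1.42 and -1.14 in moderate and -4.38 and -3.44 in severe mice. *Phka2*, the regulatory subunit of liver, rose (0.63 and 1.51). *Epm2a*, which encodes the glycogen phosphatase laforin, fell by -1.51 and -3.23. *Pgm1*, which in the mouse naming of these files is the counterpart of human *PGM2*, rose (1.08 and 1.91), whereas *Pgm2*, the counterpart of human *PGM1*, fell (-1.36 and -3.44). The sister phosphorylases *Pygb* and *Pygl* were called higher in the severe model (0.90 and 0.82). Without TMM, 8 genes of this list were called higher and 6 lower in moderate mice, and 9 and 8 in severe mice, where the shares of all genes were 52.5% and 4.51%, and 75.4% and 6.42%.

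Of 18 genes for glucose, lactate and pyruvate handling, 8 fell and 3 rose in moderate mice, beside 17.0% and 24.4% of all genes, and 12 fell and 1 rose in severe mice, beside 27.9% and 32.9%. *Slc2a4*, the insulin-regulated glucose transporter GLUT4 of muscle, was at 388, 437 and 333 CPM in control mice, 134, 187 and 169.5 CPM in moderate and 10.5, 29.2 and 25.3 CPM in severe mice (log2 fold changes -1.24 and -4.16, adjusted p = 0.00299 and 2.06e-07). *Gpd2*, the mitochondrial enzyme of the glycerol phosphate shuttle, fell by log2 fold changes of -2.33 and -4.22, and *Pdp1*, the phosphatase that activates pyruvate dehydrogenase, by -1.61 and -2.59. *Pdk3*, one of the kinases that inactivate pyruvate dehydrogenase, rose from 0.673 to 1.09 CPM in control mice to 5.45 to 8.22 CPM in moderate and 8.55 to 8.77 CPM in severe mice (2.92 and 3.21). *Mpc1*, a subunit of the mitochondrial pyruvate carrier, was called higher in the moderate model (0.84) and not in the severe model (-0.35, adjusted p = 0.129, and 0.94 by library size alone). By library size alone 5 were called higher and 6 lower in moderate mice (52.5% and 4.51% of all genes), and 5 and 8 in severe mice (75.4% and 6.42%).

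Markers of fibers and of other cells moved with these groups. Those of adult fast fibers summed to 161700 to 216900 CPM in control, 71650 to 86440 CPM in moderate and 10790 to 20120 CPM in severe mice. Of these markers 10 of 12 were called lower in moderate and 12 of 12 in severe mice, where 17.0% and 27.9% of all genes tested were. Regenerating fiber markers rose from 25.6 to 30.1 CPM to 359 to 642 CPM and 1332 to 1862 CPM (5 of 5 called higher in both models). Markers of macrophages and leukocytes rose from 61.1 to 76.4 CPM to 349 to 444 CPM and 762 to 869 CPM (7 of 7 called higher in both models). Fibroblast markers summed to 625 to 1541, 2299 to 2421 and 3821 to 4942 CPM (3 of 5 called higher in both models and 1 lower in the severe model). Over all genes tested, 24.4% were called higher in moderate and 32.9% in severe mice. Endothelial markers summed to 138 to 155, 87.8 to 115 and 60.4 to 71.7 CPM, adipocyte markers to 121 to 127, 56.5 to 124 and 25.6 to 79.7 CPM, and erythroid markers to 349 to 427, 170.2 to 331 and 32.0 to 78.7 CPM. Scaled by library size, the fast fiber, regenerating fiber and macrophage and leukocyte lists kept their directions (medians -0.81, 5.30 and 3.08 in moderate and -2.30, 7.32 and 5.07 in severe mice). The endothelial median turned from -0.50 and -1.12 with TMM to 0.10 and 0.18. The severe adipocyte calls went from 3 lower to 0, and the severe fibroblast calls from 3 higher and 1 lower to 5 higher. By library size alone, 75.4% of all genes were called higher and 6.42% lower in severe mice. No gene of these marker lists was at 0 in all mice of a group. The part of these markers in the isoform shares and in the fall of the 10 genes was not tested.

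Slow fiber markers varied between mice of the same group. They summed to 1376, 2875 and 542 CPM in control mice and 3199, 2901 and 740 CPM in FLExD mice. The sums were 560, 913 and 431 CPM in moderate and 593, 485 and 641 CPM in severe mice. Of the 8 markers, *Myl2* and *Myl3* were called lower in moderate mice, where 17.0% of all genes tested were. *Myh7* joined them in severe mice, where 27.9% were, and 5 of 8 were not called. Mean levels in control and severe mice were 568 and 4.88 CPM for *Myh7*, 183 and 0.395 CPM for *Myl2*, and 197 and 0.710 CPM for *Myl3*. *Tnni1*, which was not called, was at 60.3 and 141 CPM. Control mouse 1246, which had the highest slow fiber sum of its group, also had the highest *Pfkfb1*, *Hk2* and *Gys1* of the control mice, and the highest *Ldhb*. Of the control mice it was the lowest for *Pfkfb3*, *Pfkm*, *Aldoa*, *Eno3*, *Pgam2*, *Pygm* and *Ldha*. The part of the slow fiber markers in these values was not tested. Without control mouse 1246, the log2 fold change of *Pfkfb3* was -3.23 in moderate and -3.83 in severe mice, and 10 of 10 genes were called lower in both models.

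**Figure D5:**
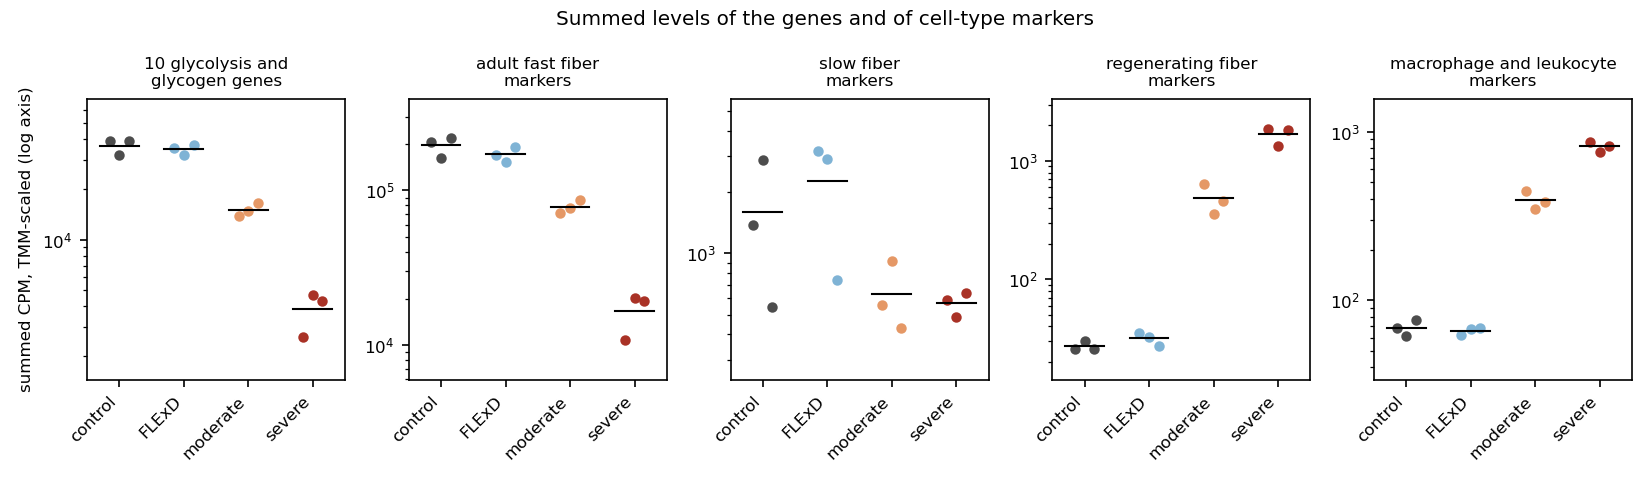
Summed CPM (TMM-scaled, log axis whose range differs between panels) of the 10 genes and of 4 lists of cell type markers in every mouse, with 1 point per mouse and a black line at the group mean. The sums of the 10 genes and of the fast fiber markers go down from control to moderate to severe mice, those of regenerating fibers and of macrophages and leukocytes go up, and the slow fiber sum spans 542 to 2875 CPM among the control mice.

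In GENCODE M21 (GRCm38) the 10 genes are protein coding and lie at chr2:11471433-11554077 (*Pfkfb3*), chrX:150588229-150643878 (*Pfkfb1*), chr15:98092589-98132451 (*Pfkm*), chr7:126795234-126800751 (*Aldoa*), chr11:70657202-70662513 (*Eno3*), chr11:5801640-5803733 (*Pgam2*), chr19:6384399-6398459 (*Pygm*), chr7:45434844-45456619 (*Gys1*), chr7:46841475-46855627 (*Ldha*) and chr6:82725025-82774454 (*Hk2*). *Pfkm* shares 341 of its 3340 exonic bases with the noncoding gene *Gm26513* on the same strand, and *Gys1* shares 310 of 4789 with *Ruvbl2* on the opposite strand. *Pfkfb1* shares 123 bases with *Apex2*, *Aldoa* 25 with *Fam57b* and *Pfkm* 18 with *Senp1*, all on opposite strands. The library protocol names no step that keeps strand, so reads in those stretches cannot be assigned to one gene.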

How the data were processed

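After trimming, the authors aligned 50-base reads to merged mm10 transcripts through RSEM 1.2.4 with Bowtie, passed reads left over to TopHat2 2.0.8b, and deposited expected counts and TPM for 12 libraries. The deposited expected counts are not normalized, and 31.8% to 36.2% of values per library are not whole numbers. The deposited TPM are per transcript length and have the same sum in every library but for rounding. They can be above 0 where a gene has 0 counts, so they are not the expected counts divided by length alone.

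Expected counts were rounded and tested with edgeR 4.0.16 in R 4.3.3 (filterByExpr, TMM, robust quasi-likelihood F-test) in 1 fit of 4 groups, with Benjamini-Hochberg adjustment over 16679 genes. This replaced the Bayes factors of the study's methods, which give no adjusted p; the threshold of log2 0.5 (1.4-fold) is theirs. SEs were derived from the F statistics. Isoform shares used TPM, and ratios to sarcomere genes used counts. The scripts were tested on simulated data. Alternatives were library size alone (also without mitochondrial genes), median-of-ratios factors, DESeq2 1.42.0, limma 3.58.1 on log2(TPM + 1) and log2(TPM + 0.1), no filter, a minimum of 10 counts per library, a fit of the 2 groups alone, a log2 threshold of 1, and each mouse left out. Gene positions came from GENCODE M21, which held 35982 of 37748 identifiers, and promoters from RefSeq tables. Figures used matplotlib.

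Members and lists were chosen with earlier results of these data known. Named beside the 10 members were, from each other pathway list, the 2 called higher and 2 called lower with the largest change (mean of 50 or more counts where higher), all isoforms, and the 5 genes most like *Pfkfb3* and *Pfkfb1*. Other genes were named after their values were seen. Nothing states that mice of a group were littermates or separate cohorts, so p-values measure the spread between these mice.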

Additional observations from a re-analysis of the deposited data

How the results depend on the processing

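The number of the 10 genes called lower in the moderate model was 10 as reported, 5 by library size alone, 5 by library size without mitochondrial genome genes, 5 by limma on log2(TPM + 1), 5 by limma on log2(TPM + 0.1) and 6 at a log2 threshold of 1. Under the other alternatives, including each mouse left out, it was 10, and for the other 3 comparisons it was within 1.5 times of the reported number under every alternative, being 10 in place of 9 for severe versus moderate without control mouse 1246 and when the other groups were left out of the fit. The log2 fold changes in the moderate model ranged over the alternatives from -3.23 to -2.01 for *Pfkfb3*, -1.90 to -1.16 for *Pygm* and -0.85 to -0.11 for *Ldha*. The step of *Pfkfb3* from moderate to severe ranged from -0.79 to 0.20, with an adjusted p from 0.0167 to 0.877, and was called without control mouse 1246 (edgeR, adjusted p = 0.0167) and when the other groups were left out of the fit (edgeR, adjusted p = 0.0237). From expected counts not divided by length, the share of *Hk2* in its family differed by -15.1 percentage points for moderate and -47.4 for severe mice, against -23.0 and -56.3 from TPM. The lowest count of any of the 10 genes was 95.2 (*Pfkfb1*, severe mouse 1047), so depth limits *Pfkfb1* more than the others, and 3 mice a group limit all of them. No paired analysis was possible because no mouse number is shared between groups.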
